A study of Rattus norvegicus with 6 samples.

Results

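Cytochrome P450 enzymes are haem proteins that insert an oxygen atom into fatty acids, sterols, steroids and drugs. P450s of the endoplasmic reticulum receive their electrons from NADPH through cytochrome P450 oxidoreductase, Por, and those of mitochondria receive theirs from ferredoxin. In heart and vessels, P450 enzymes turn arachidonic acid into epoxides that widen vessels and into hydroxy acids that narrow them, and the soluble epoxide hydrolase removes the epoxides. Flavin monooxygenases do related oxidations of nitrogen and sulphur compounds with a flavin in place of haem.

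The 10 genes described here comprise 6 P450 genes (Cyp2e1, Cyp1a1, Cyp1b1, Cyp4b1, Cyp27a1 and Cyp51), the electron donor Por, the epoxide hydrolases Ephx1 and Ephx2, and the flavin monooxygenase Fmo1. They were picked by gene name out of 28293 genes in the table and were selected on differences already seen between these rats, so their differences are given as a description, with no test. All 10 were found under their symbols. The table holds 73 P450 genes with a symbol made of Cyp, a number and at most further letters and a number. The other 67 of these are treated as a list of their own. P450 genes under other symbols were not searched, and statements on P450 genes as a group refer to these 73.

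RNA was sequenced from the myocardium of 6 male wild-type rats, 3 with a sham operation and 3 with myocardial infarction and reperfusion injury (MI/RI). MI/RI was made by tying the LAD coronary artery for 30 min, and hearts were taken 6 h after its release. The labels of the sham rats carry the same 30 min and 6 h, a single surgical protocol (anaesthesia, ventilation and left thoracotomy) is given for all 6 rats, and strain, age and the part of the heart sampled are not given in the sources used here. Levels are FPKM (fragments corrected for gene length and library size), and a log2 difference is MI/RI minus sham on log2(FPKM + 0.1), which understates the change of low genes.

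Depth and composition differed between the groups. The whole reads behind the FPKM values could be worked out for 17846 of 17863 rows above 0 in at least 2 rats (99.9%, within 0.01 of a read), and they came to 10096839 to 12482357 in the sham rats and 14314691 to 18693358 in the MI/RI rats, without the few most abundant rows that could not be resolved. These sums are therefore not library depths. The depth implied by the size of 1 read in FPKM, relative to sham rat 1, was 1.18 and 1.14 in sham rats 2 and 3. In MI/RI rats 1 to 3 it was lower, at 0.873, 0.935 and 0.881. The 13 mitochondrially encoded mRNAs held 80.1% to 86.2% of all FPKM in the sham rats and 61.8% to 71.5% in the MI/RI rats. The median log2 difference over the 10942 genes tested was 0.29. That median was 0.47 on a TPM scale, 0.04 with each library centred on its median, -0.02 with quantile normalization and -0.48 with the 13 mitochondrial mRNAs left out of the scaling. Sham rat 1 stood apart from its group, with cardiomyocyte markers summing to 9779 FPKM against 3455 and 3086 in the other sham rats and 17912 to 23421 in the MI/RI rats.

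The 250 bases upstream of the annotated start are shown for 5 members, because they differ in the motifs they hold. Cyp2e1 and Fmo1 were lower in MI/RI, Cyp51 and Por were higher, and Cyp1b1 overlapped between the groups while being a classic target of the aryl hydrocarbon receptor. Sequences come from the RefSeq table of promoters on build GRCr8, where 8 of the 10 members have a window, and are written 5′ to 3′ on the gene's strand. Capitals mark GCGTG, the core of the receptor's binding element, wherever it lies on either strand, so that on the opposite strand its reverse complement is capitalised. They also mark the TATA box letters TATAAA, which were searched on the gene's strand, and the motifs do not overlap.
Cyp2e1 (chr1:205269717-205269966, plus strand): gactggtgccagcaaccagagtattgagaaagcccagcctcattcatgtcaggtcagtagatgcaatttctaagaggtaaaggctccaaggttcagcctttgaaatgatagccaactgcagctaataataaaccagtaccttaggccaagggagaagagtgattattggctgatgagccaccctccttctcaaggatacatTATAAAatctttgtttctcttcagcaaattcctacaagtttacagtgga
Fmo1 (chr13:77747667-77747916, minus strand): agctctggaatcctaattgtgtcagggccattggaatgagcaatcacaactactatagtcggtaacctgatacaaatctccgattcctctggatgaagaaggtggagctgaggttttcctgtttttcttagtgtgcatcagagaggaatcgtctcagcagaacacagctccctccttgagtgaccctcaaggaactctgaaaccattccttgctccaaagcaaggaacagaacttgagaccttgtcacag
Cyp1b1 (chr6:21094315-21094564, plus strand): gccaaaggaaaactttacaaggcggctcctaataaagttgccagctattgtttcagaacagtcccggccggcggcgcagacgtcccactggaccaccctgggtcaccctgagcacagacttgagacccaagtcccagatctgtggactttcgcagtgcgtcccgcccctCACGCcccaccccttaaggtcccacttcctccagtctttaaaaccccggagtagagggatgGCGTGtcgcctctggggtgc
Cyp51 (chr4:30991443-30991692, plus strand): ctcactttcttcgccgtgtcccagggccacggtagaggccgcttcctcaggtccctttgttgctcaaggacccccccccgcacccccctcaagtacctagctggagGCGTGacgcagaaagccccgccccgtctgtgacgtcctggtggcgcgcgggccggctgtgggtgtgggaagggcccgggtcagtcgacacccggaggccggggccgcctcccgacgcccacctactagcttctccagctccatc
Por (chr12:26635810-26636059, minus strand): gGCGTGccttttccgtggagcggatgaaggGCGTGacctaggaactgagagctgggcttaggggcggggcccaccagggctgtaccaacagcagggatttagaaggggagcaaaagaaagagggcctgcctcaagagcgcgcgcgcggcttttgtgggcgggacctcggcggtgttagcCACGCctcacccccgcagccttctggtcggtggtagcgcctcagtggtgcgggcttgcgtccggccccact

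The Cyp2e1 window holds a TATAAA 49 bases before the start and no GCGTG, and its GC content is 42.8%. The Fmo1 window holds neither motif and has a GC content of 46.4%. The GCGTG core occurs 3 times in the Por window, 2 times in that of Cyp1b1 and 1 time in that of Cyp51. The GC content of these windows is 66.0%, 59.2% and 69.2%, beside a median of 51.2% over all windows. Of all 33469 windows in the table, 25.89% hold GCGTG and 8.06% hold TATAAA. The windows of Cyp4b1, Cyp27a1 and Ephx1 hold neither motif, and that of Cyp27a1 has the same GC content as that of Cyp1b1, 59.2%. These letters describe the windows and say nothing of whether a factor bound there.

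Cyp2e1 (ENSRNOG00000012458), the ethanol-inducible P450 that oxidises ethanol, acetone and fatty acids, had the lowest log2 difference of the 10 genes. It stood at 6.63, 10.4 and 8.77 FPKM in the sham rats and at 2.19, 0.301 and 0.137 FPKM in the MI/RI rats. No MI/RI rat came near the lowest sham rat, but the MI/RI rats were far apart from each other, with the highest 16.0 times the lowest. Behind these levels were 660, 1223 and 992 reads in the sham rats and 190, 28 and 12 reads in the MI/RI rats. The 12 reads of MI/RI rat 3 carry an exact 95% Poisson interval of 6.20 to 21.0 reads, or 0.0707 to 0.239 FPKM, which covers counting error only. Means were 8.60 ± 1.89 FPKM (SD, n = 3) and 0.875 ± 1.14 FPKM (SD, n = 3), a level 9.83-fold lower, and the log2 difference was -3.83 (SE 0.67). Among the 10942 genes tested, 4 had a lower log2 difference. Without MI/RI rat 1 it was -4.80. In bulk tissue, fewer cells of a type and less RNA per cell cannot be told apart.

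Cyp2e1 is also a gene of liver and fat, and markers of both were checked in the same rats. Of the 6 hepatocyte markers, Serpina1 and Fgb were at 0 in every rat, and all but Ttr together summed to 0.0799 to 0.604 FPKM. Ttr, the hepatocyte marker that reached the minimum level, stood at 6.89, 6.68 and 1.60 FPKM in the sham rats and at 16.9, 17.7 and 12.4 FPKM in the MI/RI rats and was higher (log2 difference 1.85 in limma at the 0.05 threshold). Apoa1, under the minimum level, was lower, at 0.244, 0.604 and 0.305 FPKM in the sham rats. In the MI/RI rats Apoa1 stood at 0.0933, 0.0218 and 0.0924 FPKM. The part of liver RNA in the result was not tested. The 5 adipocyte markers summed to 9.12 to 11.6 FPKM in the sham rats and 5.89 to 13.3 FPKM in the MI/RI rats, most of it Cfd. Adipoq, another marker of the list, was highest in MI/RI rat 2 at 1.72 FPKM. It did not exceed 0.235 FPKM in the other rats and was at 0 in MI/RI rat 1 and sham rat 3. The part of fat RNA in the result was not tested.

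Cyp4b1 (ENSRNOG00000055078), a P450 that hydroxylates fatty acids and activates some plant toxins in lung, was the most abundant of the 73 P450 genes in both groups. Its levels were 33.6, 49.0 and 35.7 FPKM in the sham rats and 14.6, 19.5 and 20.6 FPKM in the MI/RI rats. The groups were well separated, and the mean was 2.16-fold lower in MI/RI (39.4 ± 8.33 against 18.2 ± 3.21 FPKM, SD, n = 3), with a log2 difference of -1.10 (SE 0.25). Fmo1 (ENSRNOG00000034191), a flavin monooxygenase that oxidises nitrogen and sulphur compounds, stood at 8.0, 9.30 and 9.03 FPKM in the sham rats and at 3.91, 3.81 and 3.77 FPKM in the MI/RI rats. The MI/RI rats were nearly identical to each other and all lower, by 2.29-fold at the mean, and the log2 difference was -1.17 (SE 0.20). Cyp4b1 is best known from lung, and of the 5 lung epithelium markers Sftpb, Scgb1a1 and Sftpa1 were at 0 in all rats and Sftpc reached 0.0167 FPKM in MI/RI rat 3 alone. The fifth, Napsa, stood at 1.40, 1.27 and 1.13 FPKM in the sham rats and at 1.99, 2.57 and 1.47 FPKM in the MI/RI rats, higher in all of the latter, and did not pass the test.

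Por (ENSRNOG00000001442), the reductase that serves every P450 of the endoplasmic reticulum and also squalene epoxidase and haem oxygenase, was higher in every MI/RI rat. It stood at 14.7, 9.51 and 9.0 FPKM in the sham rats and at 34.1, 24.8 and 25.3 FPKM in the MI/RI rats. Sham rat 1 was the highest of its group and MI/RI rat 1 of the other, with no overlap between groups. Means were 11.1 ± 3.13 and 28.1 ± 5.21 FPKM (SD, n = 3), 2.54-fold apart, and the log2 difference was 1.35 (SE 0.26). Cyp51 (ENSRNOG00000007234), the lanosterol demethylase of cholesterol synthesis and the P450 most conserved across kingdoms, stood at 1.52, 1.5 and 1.40 FPKM in the sham rats and at 6.09, 6.58 and 5.40 FPKM in the MI/RI rats. Both groups were tight, and the mean was 4.08-fold higher in MI/RI, with a log2 difference of 1.95 (SE 0.21).

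The epoxide hydrolases differed from each other. Ephx2 (ENSRNOG00000017286), the soluble enzyme that converts arachidonic acid epoxides to diols, stood at 3.96, 4.0 and 1.95 FPKM in the sham rats and at 13.2, 7.91 and 4.11 FPKM in the MI/RI rats. The groups just failed to touch, since MI/RI rat 3 was barely above sham rats 1 and 2, and the lowest rat of both groups was number 3. The mean was 2.54-fold higher in MI/RI (3.31 ± 1.17 against 8.39 ± 4.55 FPKM, SD, n = 3), and the log2 difference was 1.24 (SE 0.42), or 0.84 without MI/RI rat 1. Ephx1 (ENSRNOG00000003515), the microsomal enzyme that acts on epoxides of foreign compounds, stood at 5.46, 4.05 and 8.04 FPKM in the sham rats and at 8.81, 7.60 and 6.74 FPKM in the MI/RI rats. Its groups overlapped, with sham rat 3 above MI/RI rats 2 and 3, and its log2 difference of 0.44 (SE 0.28) is -0.33 when the mitochondrial mRNAs are left out of the scaling. The ratio of Ephx2 to Ephx1 within a rat, which a single factor per library does not change, was 0.726, 0.989 and 0.243 in the sham rats and 1.49, 1.04 and 0.609 in the MI/RI rats. It overlapped between the groups, as MI/RI rat 3 lay below sham rats 1 and 2.

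Cyp27a1, Cyp1b1 and Cyp1a1 overlapped between the groups. Cyp27a1 (ENSRNOG00000017188), the mitochondrial enzyme that hydroxylates the cholesterol side chain, stood at 9.97, 8.79 and 7.86 FPKM in the sham rats and at 13.8, 7.09 and 8.72 FPKM in the MI/RI rats. Its log2 difference of 0.10 (SE 0.28) turned to -0.17 without MI/RI rat 1 and to -0.67 without the mitochondrial mRNAs in the scaling. Cyp1b1 (ENSRNOG00000040287), which oxidises oestrogens and polycyclic hydrocarbons, stood at 1.01, 0.957 and 1.37 FPKM in the sham rats and at 0.518, 1.06 and 1.51 FPKM in the MI/RI rats. The MI/RI rats held both the lowest and the highest value of all 6, and the log2 difference of -0.19 (SE 0.37) became 0.19 without MI/RI rat 1. Cyp1a1 (ENSRNOG00000019500), the P450 most strongly induced through the aryl hydrocarbon receptor, rested on 5, 27 and 6 reads in the sham rats and 12, 13 and 15 in the MI/RI rats. At 0.0451, 0.206 and 0.0477 against 0.124, 0.125 and 0.154 FPKM it lay under the minimum mean of 0.5 FPKM and was not fitted, and the exact Poisson intervals of sham rat 1 (1.62 to 11.7 reads) and sham rat 2 (17.8 to 39.3 reads) do not meet.

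**Figure D1:**
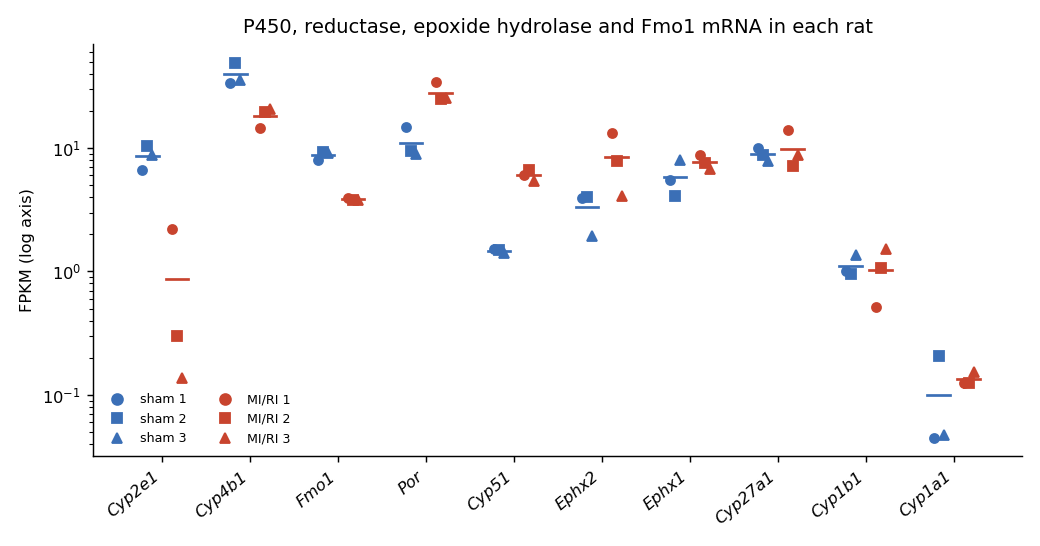
FPKM of the 10 genes in each rat on a log axis, with a point for each rat and a line at each group mean. Cyp2e1, Cyp4b1 and Fmo1 sit lower in every MI/RI rat, Por, Cyp51 and Ephx2 sit higher, and the other 4 genes overlap.

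Of the 9 members that passed the minimum, 3 had all MI/RI rats above all sham rats, 3 had all of them below, and 3 overlapped. Over all 10942 genes tested, 37.2% were higher in this sense and 13% were lower. The median log2 difference of the 9 was 0.10, beside 0.29 for all genes. Since these genes were picked from this contrast, nothing is read from that count. Taken against the all-gene median, Cyp2e1 differed by -4.12, Fmo1 by -1.46 and Cyp4b1 by -1.39, while Cyp51 differed by 1.66, Por by 1.06 and Ephx2 by 0.94. With the mitochondrial mRNAs left out these values were -4.07, -1.46, -1.40, 1.68, 1.06 and 0.95. That scaling multiplies each library by a single factor and moves a gene and the median alike. Apart from the pseudocount and the minimum level, these values could therefore not change. With quantile normalization Cyp4b1 stood at -1.97 and Por at 0.63 against the median of all genes. Without sham rat 1, the log2 differences were -4.01 for Cyp2e1, -1.21 for Cyp4b1, -1.24 for Fmo1, 1.57 for Por, 1.98 for Cyp51 and 1.40 for Ephx2. On the deposited scale, 4 genes had a lower log2 difference than Cyp2e1, 491 than Fmo1 and 566 than Cyp4b1. Higher than Cyp51 were 414 genes, higher than Por 1197 and higher than Ephx2 1469.

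**Figure D2:**
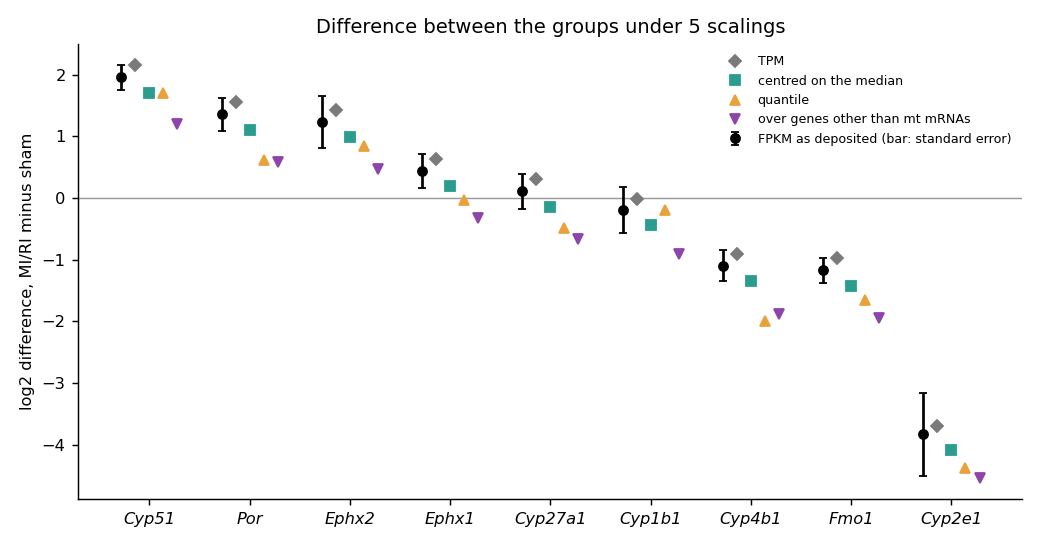
Log2 difference (MI/RI minus sham) of the 9 members with a fit, on the deposited FPKM scale (with its SE as a bar) and on 4 other scales, with a symbol for each scale. Cyp2e1, Cyp4b1 and Fmo1 stay under 0 and Por, Cyp51 and Ephx2 above 0 in all 5, while Ephx1 and Cyp27a1 change sign and Cyp1b1 stays near 0 or under it.

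The order of the members by level changed between the groups. In the sham rats Cyp4b1 led, followed by Por, Cyp27a1, Fmo1, Cyp2e1 and Ephx1, and the ranges of each neighbouring pair from Por to Ephx1 overlapped. Ephx2, Cyp51, Cyp1b1 and Cyp1a1 followed with no overlap between neighbours. In the MI/RI rats Por stood first and Cyp4b1 next, without overlap, and then came Cyp27a1, Ephx2 and Ephx1, whose ranges overlapped. Cyp51 and Fmo1 followed, each apart from its neighbours, and Cyp1b1, Cyp2e1 and Cyp1a1 came last with overlapping ranges. Cyp2e1 thus moved from among Fmo1 and Ephx1 to among the lowest members, and Cyp51 moved above Fmo1 and Cyp2e1.

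Summed over the 73 P450 genes found by symbol, P450 mRNA stood at 81.4, 103.4 and 83.9 FPKM in the sham rats and at 68.2, 55.6 and 58.0 FPKM in the MI/RI rats. Shares within that sum are not changed by a single factor per library. Cyp4b1 made up 43.7% ± 3.20 (SD, n = 3) of P450 FPKM in the sham rats and 30.7% ± 8.05 in the MI/RI rats. Cyp2e1 went from 9.55% ± 1.23 to 1.33% ± 1.63, and Cyp51 from 1.66% ± 0.209 to 10.02% ± 1.58. Cyp27a1, whose FPKM overlapped between groups, was 10.04% ± 1.96 of the sham sum and 16.0% ± 3.87 of the MI/RI sum. Por mRNA per unit of summed P450 mRNA was 0.180, 0.0920 and 0.107 in the sham rats and 0.4995, 0.446 and 0.436 in the MI/RI rats, a mean ratio 3.64-fold higher with every MI/RI rat above every sham rat. The sum includes mitochondrial P450s such as Cyp27a1, which do not receive electrons from Por. Since Por, Cyp4b1 and Cyp2e1 were picked on this contrast, the ratio is a description only.

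The genes around these 10 were taken as 6 pathway lists and tested with limma across all genes, where 25.5% of the genes tested rose and 7.36% fell at a Benjamini-Hochberg adjusted p under 0.05. Nothing in the labels ties rats to litters or days, so effects of these could not be taken into account. The p-values rest on the spread between rats within the groups, which limma moderates across all genes. Most of the 67 other P450 genes were scarcely expressed, with 28 at 0 in every rat and 55 below the minimum level in all. Families known for making vasoactive arachidonic acid epoxides and hydroxy acids were among these. Of the genes found by symbol, no Cyp2c gene (7, of which 5 at 0 in all rats), no Cyp2j gene (3) and no Cyp4a gene (4) reached the minimum. The highest of those below it was Cyp2j4 at a mean of 0.449 FPKM. The 3 genes found of the drug-metabolising Cyp3a family did not reach it either. Of the Cyp4f family, some of which also make hydroxy acids of arachidonic acid, 5 of the 8 genes found did.

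Of the 12 other P450 genes tested, 3 fell, 1 rose and 8 did not pass, and the median log2 difference was -0.53. The 3 that fell became 1 without sham rat 2 or MI/RI rat 2 and 5 with libraries centred. Cyp2t1 fell from 3.70, 3.14 and 3.59 FPKM to 1.46, 1.01 and 1.10 FPKM (log2 difference -1.48, SE 0.23, limma adjusted p = 0.0035). Cyp2d4 fell from 2.63, 4.66 and 2.78 FPKM to 1.46, 0.960 and 1.94 FPKM (-1.16, SE 0.31, adjusted p = 0.020), a call that was lost without sham rat 2 (0.074) or MI/RI rat 2 (0.063) or with no minimum level (0.0615). The remaining gene that fell was Cyp4f37 (-0.98, adjusted p = 0.035), named after its values were seen, and its call was lost on leaving out any rat but sham rat 1 (adjusted p 0.0597 to 0.164), with no minimum level (0.0741), on the TPM scale (0.0727) and with voom on the recovered reads (0.0626). Cyp11a1, the mitochondrial enzyme that cleaves cholesterol to pregnenolone, rose from 0.602, 0.530 and 0.339 FPKM to 7.47, 1.92 and 1.09 FPKM (2.18, SE 0.57, adjusted p = 0.018), and most of the rise lay in MI/RI rat 1. Its call was lost without sham rat 2 (0.060) or sham rat 3 (0.059) or with no minimum level (0.067), and without the mitochondrial mRNAs in the scaling 9 genes of the list fell and 1 rose.

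Of the 18 genes listed that bring electrons and haem to P450s, all tested, 9 rose and none fell, with a median log2 difference of 0.76. Alas1, the rate-limiting enzyme of haem synthesis, rose from 3.21, 2.75 and 2.07 FPKM to 59.0, 28.5 and 29.2 FPKM (3.75, SE 0.32, limma adjusted p = 0.00031). Fdx1, the ferredoxin that reduces mitochondrial P450s such as Cyp27a1 and Cyp11a1, rose from 11.9, 5.22 and 5.66 FPKM to 40.5, 83.2 and 35.4 FPKM (2.78, SE 0.40, adjusted p = 0.0029). Both held their call under every alternative tried. Urod, a later enzyme of haem synthesis, rose from 17.1, 10.5 and 12.0 FPKM to 33.8, 26.7 and 29.5 FPKM (1.20, SE 0.25, adjusted p = 0.0077), a call that was lost with the mitochondrial mRNAs left out (0.18) or with quantile normalization (0.18). Alad, which makes a haem precursor and is named after its values were seen, also rose (1.18, adjusted p = 0.013), and its call was lost without sham rat 2 (0.0536) or sham rat 3 (0.0513), with the mitochondrial mRNAs left out (0.229) and with quantile normalization (0.108). The count of 9 dropped to 4 without sham rat 2 or sham rat 3, to 5 without MI/RI rat 1 or 3 or with libraries centred, and to 2 with quantile normalization, and with the mitochondrial mRNAs left out of the scaling 2 rose and 2 fell. Cardiomyocyte markers moved with this list, as 5 of 6 rose, and their part in the result was not tested.

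**Figure D3:**
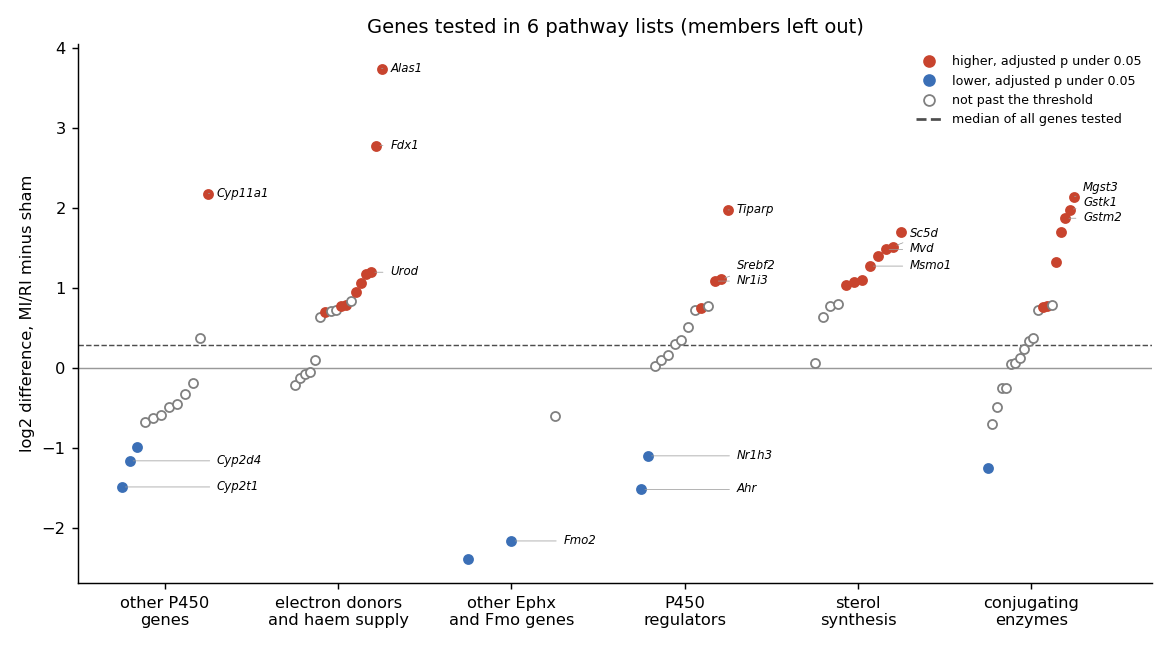
Log2 difference (MI/RI minus sham) of each gene tested in the 6 pathway lists, filled where the adjusted p was under 0.05, with the median of all genes as a dashed line. The sterol list lies wholly above 0, the flavin monooxygenases shown wholly below it, and Alas1 stands highest.

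Other flavin monooxygenases also fell. Of the 6 other epoxide hydrolase and flavin monooxygenase genes listed 3 were tested, all of them Fmo genes, of which 2 fell and none rose, and the median log2 difference was -2.16. Fmo2, the form best known from lung, fell from 26.99, 40.4 and 37.8 FPKM to 8.53, 6.86 and 7.70 FPKM (-2.16, SE 0.24, limma adjusted p = 0.0011), and kept its call under every alternative tried. Fmo4, low in all rats and named after its values were seen, fell from 0.941, 1.68 and 0.927 FPKM to 0.197, 0.151 and 0.0804 FPKM (-2.38, SE 0.41, adjusted p = 0.0043). Fmo5 stood at 1.04, 0.808 and 0.910 FPKM and at 0.790, 0.350 and 0.652 FPKM and did not pass (adjusted p = 0.20). Summed with Fmo1, these genes came to 36.97, 52.1 and 48.6 FPKM in the sham rats and 13.4, 11.2 and 12.2 FPKM in the MI/RI rats. Without sham rat 2, Fmo4 lay under the minimum level and was not tested, and the count was 1. Fibroblast markers summed to 377 to 520 FPKM in the sham rats and 537 to 585 FPKM in the MI/RI rats, and endothelial markers to 141 to 182 and 156 to 179 FPKM. Most of the fibroblast sum was Col3a1 and Dcn, and 2 of the 6 fibroblast markers passed as higher and none as lower. None of the 6 endothelial markers passed. The part of these cells in the falls was not tested.

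**Figure D4:**
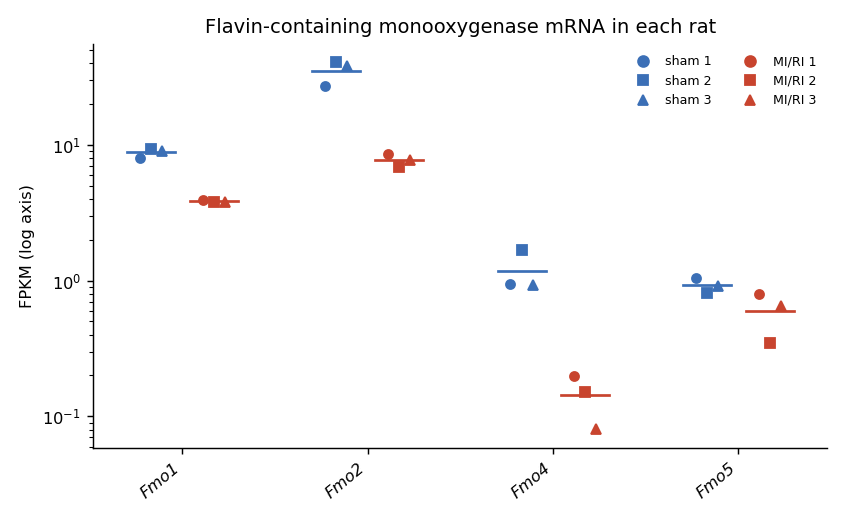
FPKM of Fmo1, Fmo2, Fmo4 and Fmo5 in each rat on a log axis, with a point for each rat and a line at each group mean. Every MI/RI rat lies below every sham rat for all 4 genes, with Fmo2 going from 26.99 to 40.4 FPKM down to 6.86 to 8.53 FPKM.

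Cyp51 sits in the middle of cholesterol synthesis, and most of the other enzymes tested on that route rose. Of 17 genes listed 15 were in the table and 12 were tested, of which 8 rose, none fell, and all 12 had a log2 difference above 0, with a median of 1.09 beside 0.29 for all genes. Of the 3 under the minimum level, Lss overlapped between the groups, with means of 0.481 FPKM in sham and 0.281 FPKM in MI/RI. Tm7sf2 also overlapped, with means of 0.357 and 0.448 FPKM, and Hsd17b7 was higher in every MI/RI rat. Msmo1, which acts on the product of Cyp51 further along the route, rose from 1.36, 1.36 and 1.18 FPKM to 3.78, 3.84 and 2.45 FPKM (1.28, SE 0.25, limma adjusted p = 0.0059). Mvd, the decarboxylase of the mevalonate steps, rose from 0.449, 0.485 and 0.470 FPKM to 2.23, 1.12 and 1.32 FPKM (1.49, SE 0.32, adjusted p = 0.0086). With the mitochondrial mRNAs left out of the scaling the calls of Msmo1 (0.53, adjusted p = 0.187) and Mvd (0.79, adjusted p = 0.121) were lost. Sc5d, a late desaturase, rose by 1.52 (SE 0.42, adjusted p = 0.021), but sham rat 1 at 1.15 FPKM stood far above the other sham rats at 0.355 and 0.310 FPKM, and the call was lost in 8 of 16 alternatives. The count of 8 was 4 without sham rat 2, and 5 without sham rat 3, without MI/RI rat 1 or with libraries centred. With the mitochondrial mRNAs left out 1 of 11 genes tested rose. The list's median was then 0.90 above that of all genes, against 0.80 with 12 genes on the deposited scale. As that scaling moves all genes alike, this distance could change only through the pseudocount and the genes that reach the minimum.

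**Figure D5:**
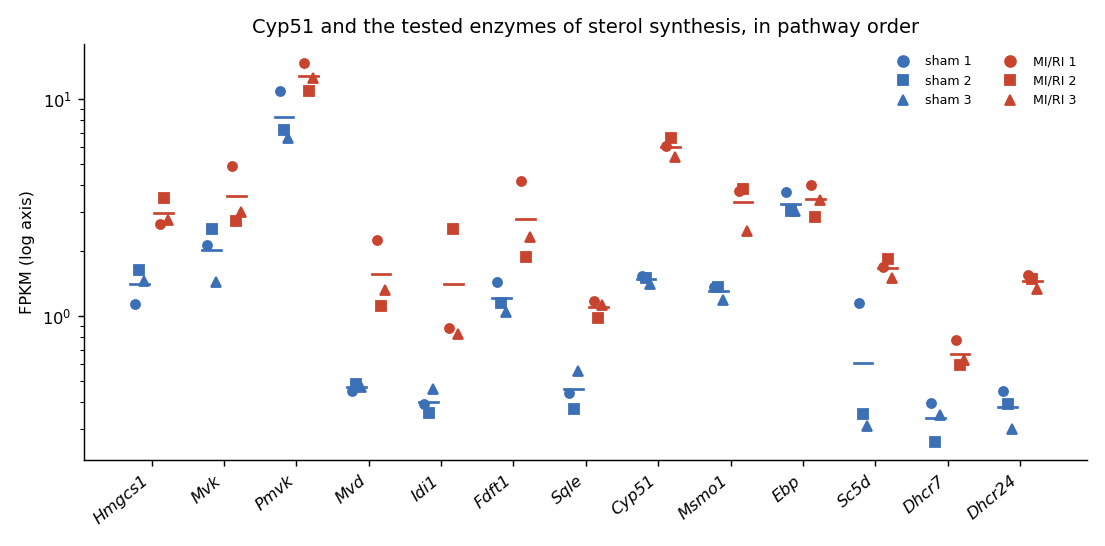
FPKM on a log axis of Cyp51 and 12 other tested enzymes of cholesterol synthesis in the order of the route, with a point for each rat and a line at each group mean. Cyp51 goes from 1.40 to 1.52 FPKM in the sham rats to 5.40 to 6.58 FPKM in the MI/RI rats, and Ebp overlaps between the groups.

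Among the regulators of P450 genes, 14 of 19 were tested, 4 rose and 2 fell, and the median log2 difference was 0.43. Ahr, the aryl hydrocarbon receptor that drives Cyp1a1 and Cyp1b1, fell from 1.05, 1.99 and 2.71 FPKM to 0.561, 0.495 and 0.639 FPKM (-1.51, SE 0.35, limma adjusted p = 0.011). Tiparp, itself a target and repressor of that receptor, rose from 0.786, 0.979 and 1.29 FPKM to 5.70, 4.02 and 3.30 FPKM (1.98, SE 0.28, adjusted p = 0.0028), while Arnt, the receptor's partner, stood at 3.0, 3.81 and 2.93 FPKM and at 4.0, 3.71 and 2.84 FPKM and did not pass (adjusted p = 0.74). Srebf2, the factor that drives cholesterol synthesis genes including Cyp51, rose from 1.82, 2.43 and 1.86 FPKM to 4.26, 5.40 and 3.90 FPKM (1.11, SE 0.23, adjusted p = 0.0077). Nr1h3, the oxysterol receptor LXR alpha, fell from 4.98, 8.27 and 6.24 FPKM to 3.45, 2.94 and 2.47 FPKM (-1.09, SE 0.25, adjusted p = 0.011). Nr1i3, the xenobiotic receptor CAR, rose by 1.09 (SE 0.28, adjusted p = 0.017). Without sham rat 3 the counts were 2 and 1, with Ahr (0.059) and Nr1i3 (0.061) no longer past the threshold. With the mitochondrial mRNAs left out 1 rose and 2 fell, and Srebf2 (0.35, adjusted p = 0.385) and Nr1i3 (0.33, adjusted p = 0.419) no longer passed.

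The conjugating enzymes that act after P450s and epoxide hydrolases were mixed. Of 27 genes listed 23 were in the table and 20 were tested, 7 rose, 1 fell and 12 did not pass, with a median log2 difference of 0.36. Mgst3, a microsomal glutathione transferase, rose from 124.8, 36.5 and 31.4 FPKM to 294, 193 and 219 FPKM (2.14, SE 0.47, limma adjusted p = 0.0090), with sham rat 1 far above its group, and narrowly missed the threshold without sham rat 2 (0.0505). Gstk1, the mitochondrial and peroxisomal transferase, rose from 13.8, 7.50 and 6.19 FPKM to 49.5, 28.2 and 29.0 FPKM (1.98, SE 0.34, adjusted p = 0.0043), and Gstm2 from 15.2, 5.86 and 5.20 FPKM to 33.5, 23.4 and 30.2 FPKM (1.88, SE 0.38, adjusted p = 0.0072). The Gstm2 call was lost with quantile normalization (0.0552). Sham rat 1 was also the sham rat with the highest cardiomyocyte markers, and the part of those cells in these values was not tested. The gene that fell was Nat1 (-1.25, adjusted p = 0.017), named after its values were seen, and its call was lost without sham rat 2 (0.0598) or sham rat 3 (0.0733). The split of 7 and 1 was 5 and 2 with libraries centred, 4 and 3 with quantile normalization, 4 and 4 with the mitochondrial mRNAs left out and 8 and 2 with a replicate block, and the 7 became 4 without sham rat 2.

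Markers of other cells also differed between the groups. Neutrophil and monocyte markers summed to 17.0 to 28.3 FPKM in the sham rats and 51.7 to 120.9 FPKM in the MI/RI rats, with 5 of 6 tested markers higher, and macrophage markers to 34.1 to 41.1 and 46.7 to 59.3 FPKM, with 1 higher and 2 lower of 6. Smooth muscle and pericyte markers spread widely within both groups, at 85.2 to 277 and 141 to 335 FPKM. Without sham rat 1, whose cardiomyocyte markers stood apart, 8 genes of the electron and haem list, 8 of the sterol list, 4 regulators and 8 conjugating enzymes rose, and 3 other P450 genes and 2 flavin monooxygenases fell. Which cells carried each of the 10 mRNAs was not tested.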

How the data were processed

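The authors deposited 1 table of FPKM values for 6 rat myocardium libraries, made from total RNA with a stranded TruSeq kit. The submitters' processing notes name STAR and HTSeq, and the versions, genome build, annotation and read total are not given in the sources used here. The 30452 rows were summed by gene symbol to 28293 genes (7092 rows had no symbol), and genes with a mean of at least 0.5 FPKM were tested in limma 3.58.1 (R 4.3.3, trend, log2(FPKM + 0.1), Benjamini-Hochberg threshold 0.05), after a check on simulated data. Sham and MI/RI were fitted without covariates. Deviations of same-numbered rats from their group means correlated at 0.20, 0.12 and 0.12. Differently numbered rats ran from -0.19 to 0.12, the highest being sham rat 3 with MI/RI rat 2, so no pairing is read from this. A fit with a replicate block was also run, although the labels name no shared animal or day. Whole reads were recovered by finding the step of each row, assuming the smallest whole numbers. Alternatives were pseudocounts, filters, scalings, no trend and leaving out each rat. TATAAA was searched after the data were seen. The members and lists were chosen with earlier results of these data known. Named from each list were up to 3 genes in each direction with the largest log2 difference past the threshold and a mean of at least 1 FPKM. Fdps and Nsdhl were not matched by symbol. A few genes of these lists are not reported here and were left out of the lists' counts.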

Additional observations from a re-analysis of the deposited data

How the results depend on the processing

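Over all genes, 2790 rose and 805 fell. The number that rose was 791 with the scaling over genes other than the mitochondrial mRNAs, 1441 with quantile normalization and 1526 to 2567 on leaving out 1 rat. The number that fell was 166 with a minimum of 5 FPKM, 527 on the TPM scale, 3010 without the mitochondrial mRNAs, 1554 with centring, 1559 with quantile normalization and 305 to 880 on leaving out 1 rat. In the 6 lists together 29 rose and 8 fell. Those that rose numbered 18 with a minimum of 5 FPKM, 9 without the mitochondrial mRNAs, 19 with centring, 17 with quantile normalization and 15 to 29 on leaving out 1 rat, and those that fell numbered 2 with a minimum of 5 FPKM, 20 without the mitochondrial mRNAs and 4 to 8 on leaving out 1 rat. The causes were not tested, beyond that the stricter minimum tests fewer genes. The share of calls that were higher was 77.6% as deposited, 86.8% on the TPM scale, 56.5% with centring, 48.0% with quantile normalization and 20.8% without the mitochondrial mRNAs. Among the members, Cyp1b1 ran from -0.50 to 0.19 on leaving out 1 rat. Cyp27a1 was -0.67 without the mitochondrial mRNAs, -0.14 with centring, -0.49 with quantile normalization and -0.17 to 0.31 on leaving out 1 rat, and Ephx1 was -0.33 without the mitochondrial mRNAs and -0.0358 with quantile normalization. With the replicate block 3085 genes rose and 895 fell, and 33 and 9 in the lists. Limma's voom on the recovered reads, added after seeing the data, gave 2919 and 856. Pseudocount 1 moved Cyp2e1 to -2.50. Depth limits Cyp1a1 and the MI/RI level of Cyp2e1, and counting intervals take no account of differences between rats.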
